A study of Mus musculus with 2 samples.

Results

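The cytoplasmic ribosomal protein genes were followed in spermatogonial progenitor cells (SPCs), which sustain spermatogenesis. They were taken by symbol: Rpl, Rps or Rplp followed by a number and at most 1 letter, plus Rpsa, with pseudogenes and the Rps6k kinases left out. This gave 81 genes of 23366 named in the files, 50 of the large subunit, the 3 stalk genes among them, and 31 of the small subunit. The cells were isolated 8 days after birth from C57BL/6 testes. One genotype was a knockout (KO) of Dnmt3l, which encodes a cofactor without enzyme activity of its own for the methyltransferases that set new DNA methylation, and the other was wild type (WT). There was 1 poly(A) RNA library of each, so no difference has a replicate check, no test was made, and every value describes these libraries. The labels give neither the knockout allele nor how many animals were pooled. Dnmt3l itself was listed at 0 FPKM in the KO library and at 1.67 FPKM in the WT library, where its bounds were 0.791 and 2.68 FPKM.

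A ribosome holds 1 copy of nearly every ribosomal protein, so their mRNAs are among the most abundant of a dividing cell and are made in similar amounts. Many of these mRNAs begin with a terminal oligopyrimidine (TOP) tract, an unbroken run of C and T at the cap, through which growth signals acting by way of mTOR set their translation. Most of the genes have processed copies elsewhere in the genome, and several on the X chromosome have autosomal paralogs that are used in male germ cells. In the germline stem cells of Drosophila, ribosome production is known to change as the cells differentiate.

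Runs of C and T near the annotated starts were counted. RefSeq promoters of build GRCm38.p6 were matched for 61 of the 81 genes, with 73 starts, and were read from 15 bases before to 15 bases after the annotated start. A run of 8 or more C or T on the coding strand stood in 28 of the 73 starts, or 38.4%, against 12% of the 32851 starts of all genes. Some of these runs, such as those of Rpl13 and Rps15a, end before the annotated start and are not tracts at the cap as annotated. By gene it was 27 of 61, or 44.3%, against 13.9% of all genes. The hexamer CTTTCC, searched on both strands and often inside such a run, was in 13.7% of the starts of ribosomal protein genes and in 2.68% of all starts. The 4 longest runs within these windows and the annotated starts of the 4 X-linked genes are shown, with the longest run of C and T in capitals. The runs are the extreme of this count, and the levels of the X-linked genes are described below.
Rpl7a, chr2:26910792-26910821, plus strand: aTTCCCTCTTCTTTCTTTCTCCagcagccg
Rpl27a, chr7:109519180-109519209, plus strand: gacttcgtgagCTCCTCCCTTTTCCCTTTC
Rpl34, chr3:130730323-130730352, minus strand: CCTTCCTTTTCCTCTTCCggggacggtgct
Rpl35, chr2:39005117-39005146, minus strand: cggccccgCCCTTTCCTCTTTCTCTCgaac
Rpl39, chrX:37085208-37085237, minus strand: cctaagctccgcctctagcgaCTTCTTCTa
Rpl10, chrX:74270801-74270830, plus strand: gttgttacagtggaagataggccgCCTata
Rpl36a, chrX:134585639-134585668, plus strand: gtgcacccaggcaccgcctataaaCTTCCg
Rps4x, chrX:102189377-102189406, minus strand: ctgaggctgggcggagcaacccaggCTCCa
The runs of Rpl7a, Rpl27a, Rpl34 and Rpl35 were 21, 19, 18 and 18 bases long within the windows. Those of Rpl27a and Rpl34 reach an edge of the window and may be longer. Only Rpl39 of the X-linked genes had a run of 8, which begins at base 7 from the annotated start and is not a tract at the cap as annotated. A start window without such a run says only that these letters are not in it. Some annotated starts are also not those of the RefSeq transcripts used for the levels. The windows of Rpl34, Rpl39 and Rps4x lie wholly upstream of those transcripts, whose outermost starts are at 130730308, 37085184 and 102188371. The median log2 ratio between the libraries, defined below, was 0.41 for the 26 expressed genes with a run and 0.44 for the 34 without.

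The level of a gene is its FPKM, fragments scaled by transcript length and by the mapped fragments of the library, as the authors' files give it. Those files list RefSeq transcripts and, beside them, transcript models assembled from the reads of each library, so 3 measures were used. The summed FPKM adds the RefSeq transcripts of a gene and its models of 300 nt or more. The RefSeq-only value leaves the models out. For the exon level, the FPKM of every RefSeq transcript and every model of 300 nt or more lying over a base was added up. The average was then taken across the RefSeq exons. Differences are log2((KO FPKM + 1)/(WT FPKM + 1)), called the log2 ratio, and genes of at least 1 FPKM in 1 library were compared. Of the 81 genes, 77 passed on the summed FPKM, 76 on the RefSeq-only value and 80 on the exon level. The files hold no read counts, so the depth is unknown, and the lower and upper bounds printed with an FPKM are those the files give for the estimate within a library.

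Ribosomal protein mRNAs were abundant and slightly higher in the KO library. At the exon level they made up 19.3% of the summed level of all named genes in the KO library and 17.6% in the WT library. On the summed FPKM the shares were 18.2% in the KO library and 17.6% in the WT library. By subunit these were 9.85% and 9.23% for the large, and 8.32% and 8.41% for the small. The summed FPKM of all named genes was itself 514187 in the KO library and 415325 in the WT library. Without the 4 low paralogs Rpl3l, Rpl10l, Rpl39l and Rps27l, the median exon level was 1080.3 FPKM in the KO library and 813 FPKM in the WT library. The lower and upper quartiles of these 76 genes were 761 and 1573 FPKM in the KO library and 593 and 1198 FPKM in the WT library. The order of the genes was nearly the same in both libraries, with a Spearman rho of 0.980 across the 80 genes, which share their libraries and are not independent replicates.

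**Figure D1:**
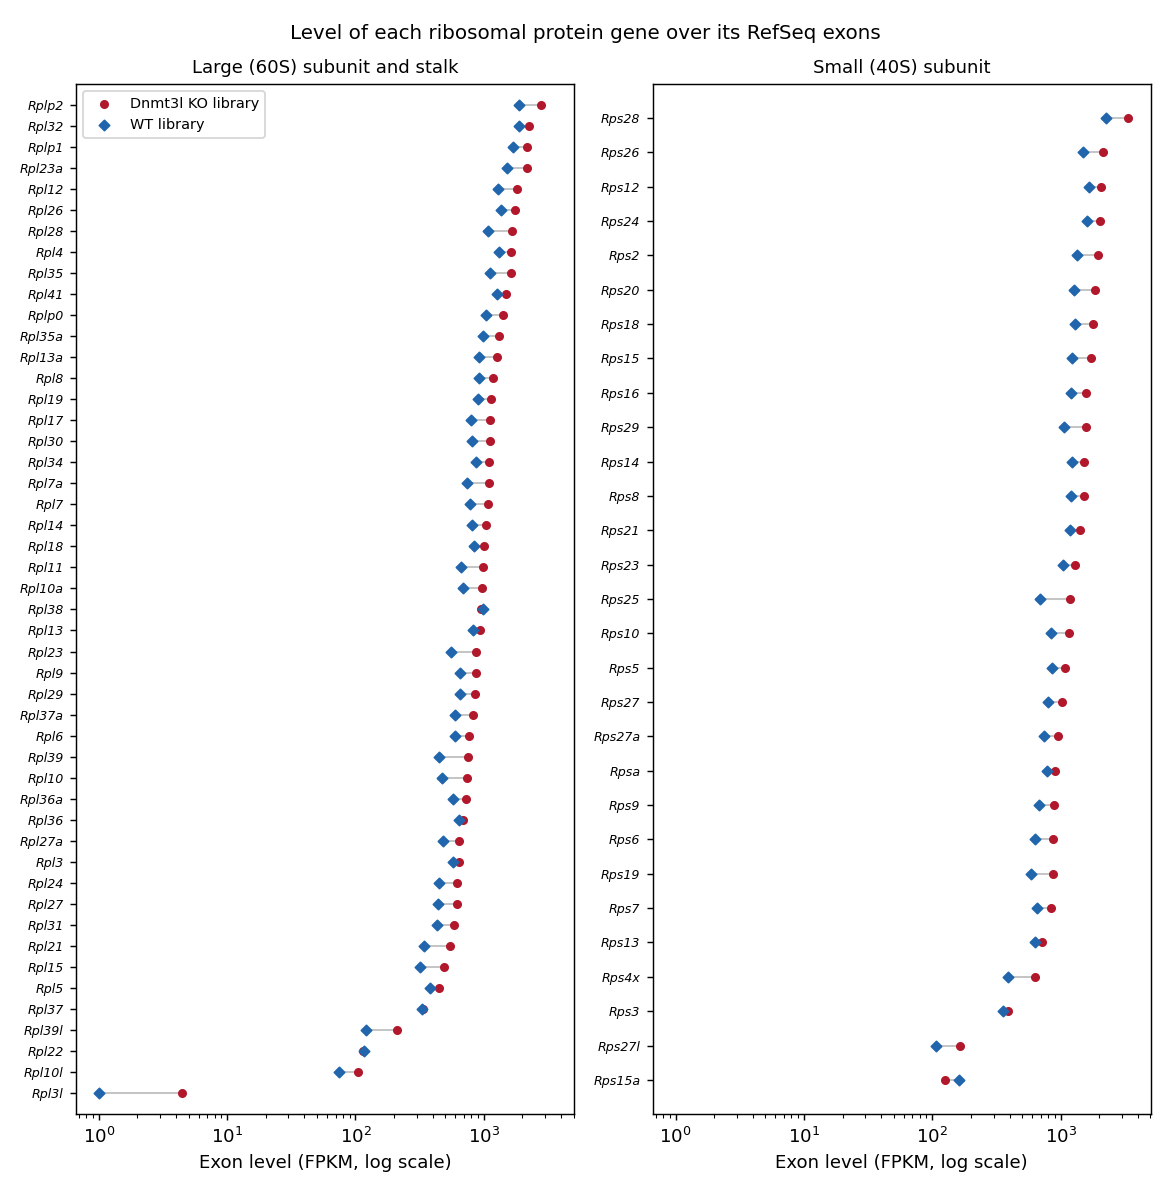
Exon level in FPKM, on a log scale, of 77 of the 80 ribosomal protein genes at 1 FPKM or more, with the KO library as red circles and the WT library as blue diamonds, and genes ordered by their KO level. In 74 of the 77 the circle lies to the right of the diamond. Rpl3l, listed at 0 in the WT library, is drawn at 1.

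The median log2 ratio over the 77 genes was 0.40, with quartiles of 0.28 and 0.55, against a median of 0.22 over the 13823 genes compared, with quartiles of -0.15 and 0.55. On a linear scale the median ratio of ribosomal protein genes was 1.32. The ratio was above 0 in 69 genes and below 0 in 8, while 66% of all genes compared were above 0. It was above the median gene of the libraries, at 0.21, in 65 genes, and 51.2% of all genes compared were. The KO bounds lay wholly above the WT bounds in 56 genes, where all genes gave 35.4%, and wholly below them in 11, where all genes gave 16.2%. In 5 of these 11, Rpl41 and Rps14 among them, the KO value itself was higher than the WT value and lay above its own bounds. At least 2-fold higher were 3 genes, a share of the set below the 7.67% of all genes, and at least 2-fold lower were 2, where all genes gave 3.49%. A ratio of 1.5-fold or more in favour of the KO library was seen in 11 genes, and in 22.7% of all genes. Listed at 0 in 1 of the libraries were 2 genes, Rpl26 and Rpl3l, where all genes gave 3.73%.

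At the exon level the median was close to that of the sum and the extremes were nearer to it. The median was 0.41, with quartiles of 0.32 and 0.52, against 0.16 over the 13873 genes compared. Above 0 were 77 of 80 genes, where 63% of all genes were, and above the exon-level median gene of 0.15 were 73, where 50.9% of all genes were. Only Rpl3l was at least 2-fold higher, and 5.2% of all genes were. None was at least 2-fold lower at the exon level, where 3.09% of all genes were. No test could be run on these counts. The 3 genes below 0 were Rps15a at -0.36, Rpl38 at -0.04 and Rpl22 at -0.02. Models under 300 nt are left out of the exon level too. In the KO library such models had 1723 FPKM at Rpl37 and 341 FPKM at Rpl22. Exon levels with them were not computed, so the place of these 2 genes holds only without those models.

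The median log2 ratios of the subunits were 0.44 over 47 genes of the large and 0.38 over 30 genes of the small subunit on the summed FPKM. At the exon level they were 0.42 over 49 genes and 0.39 over 31 genes. The exon-level quartiles were 0.32 and 0.51 for the large and 0.32 and 0.52 for the small.

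The transcripts of ribosomal proteins are short, and short transcripts as a class were higher in the KO library. Across all genes compared, the log2 ratio and the length of the longest RefSeq transcript had a Spearman rho of -0.40, a description across genes. Genes shorter than 1000 nt had a median exon-level log2 ratio of 0.52, against 0.41 for the 61 expressed ribosomal protein genes of that length. The closest class was genes outside the set, shorter than 1000 nt and at 100 FPKM or more in both libraries. Its 145 genes had an exon-level median of 0.48, and the 61 ribosomal protein genes of that length and level had 0.41. In the shortest of 20 equal bins of length, 300 to 770 nt, the 46 ribosomal protein genes had a median of 0.41 and all 694 genes 0.52. When the median of its length bin was taken off each gene, the median of the set was -0.11 on the summed FPKM and -0.08 at the exon level, with 56 of 77 and 57 of 80 genes below 0. The median of the set was thus above the median gene and slightly below genes of its own length. Within the set length and exon-level ratio had a Spearman rho of -0.11.

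**Figure D2:**
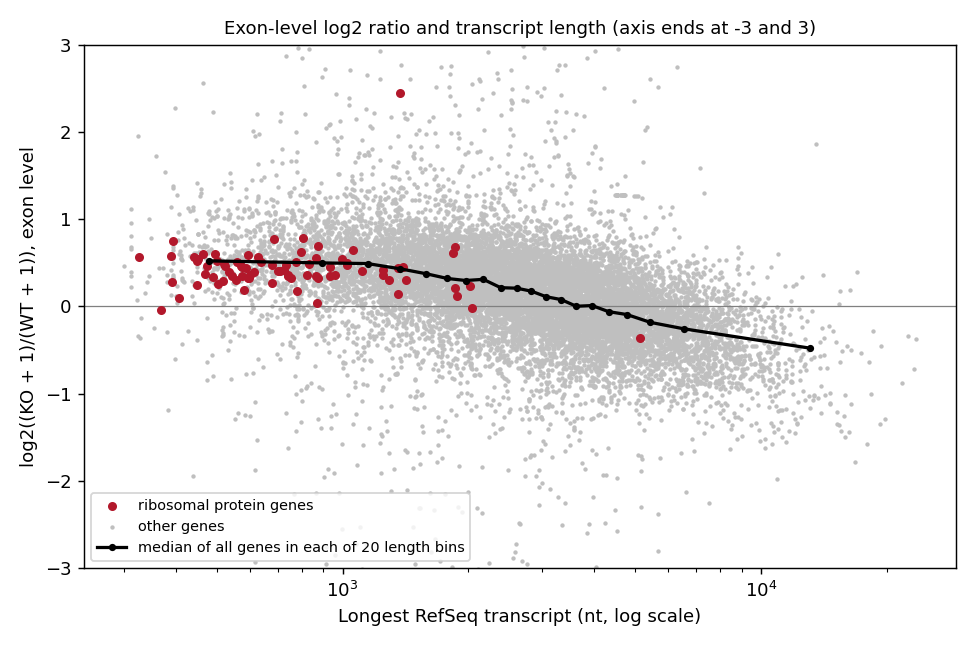
Exon-level log2 ratio of KO over WT (vertical axis) against the length of the longest RefSeq transcript in nt (horizontal, log scale) for ribosomal protein genes in red and all other genes compared in grey, with the median of each of 20 length bins in black. The black line falls with length, from 0.52 in the shortest bin to -0.48 in the longest, and most red points lie close to it.

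Markers of other testis cells were also higher in the KO library. The summed FPKM of 10 Sertoli cell genes was 800 in the KO library and 344 in the WT library, with a median log2 ratio of 0.75 and all 10 higher. For 10 macrophage genes it was 1061 FPKM in the KO library and 522 FPKM in the WT library, with 9 higher, a median log2 ratio of 1.19, and Cd68 listed at 0 in the KO library. Leydig cell genes summed to 136 FPKM in the KO library and 60.5 FPKM in the WT library, with 4 of 5 compared higher, a median log2 ratio of 0.99, and Star listed at 0 in both. Endothelial genes summed to 132 FPKM in the KO library and 65.6 FPKM in the WT library, with 6 of 7 higher and a median log2 ratio of 0.86. Peritubular and stromal genes summed to 584 FPKM in the KO library and 400.3 FPKM in the WT library, with 4 of 6 higher and a median of 0.60. Erythroid genes summed to 22.2 FPKM in the KO library and 9.21 FPKM in the WT library, and all 3 compared were higher. The 12 progenitor markers were all present in both libraries. They summed to 1178 FPKM in the KO library and 1246 FPKM in the WT library, with a median log2 ratio of 0.29 and 8 of 12 higher. Zbtb16 and Dazl had -0.97 and -0.70, Gfra1 and Id4 0.80 and 1.23. All 5 markers of differentiating spermatogonia were lower, with a median of -0.75. In such bulk RNA fewer cells of a type and less RNA per cell cannot be told apart, and the part of these cells in the ribosomal protein values was not tested.

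Most genes of the set were measured by RefSeq transcripts alone. Of the 77, 53 had no assembled model in either library, and 51 of these were above 0 in both. Their log2 ratios ran from -0.07 in Rpl38 to 0.78 in Rpl39l, with a median of 0.45, and 50 of the 51 were above 0. All 4405 genes compared without a model, those at 0 in 1 library included, had a median of 0.27, with 3161 above 0. In the 51 ribosomal protein genes the sum and the RefSeq-only value are one number.

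Of these genes, those of the large subunit were all but 1 higher in the KO library. Rpl11, a component of the central protuberance that also binds MDM2, had 992 FPKM in the KO library and 661 FPKM in the WT library, a log2 ratio of 0.58. Rpl28 had 1645 FPKM in the KO library and 1082 FPKM in the WT library, a log2 ratio of 0.60. Rpl35a, mutated in some families with Diamond-Blackfan anaemia, a failure of red cell production, had 1578 FPKM in the KO library and 1201 FPKM in the WT library, a log2 ratio of 0.39. All 3 were thus higher in the KO library. Rpl7 had 1070 FPKM in the KO library and 781 FPKM in the WT library, and Rpl7a, which shares little but the name with it, had 1091 FPKM in the KO library and 744 FPKM in the WT library. Their log2 ratios were 0.45 and 0.55.

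The lower end of the large subunit held genes that were nearly equal in the libraries. Rpl38, known in mice for its part in translating Hox mRNAs, had 1063 FPKM in the KO library, with bounds of 976 and 1151, and 1112 FPKM in the WT library, with bounds of 1014 and 1212. These bounds overlap. Rpl36 had 690 FPKM in the KO library and 643 FPKM in the WT library, a log2 ratio of 0.10, again with overlapping bounds. Rpl3, which reaches to the peptidyl transferase centre, had 637 FPKM in the KO library and 577 FPKM in the WT library, a log2 ratio of 0.14. All 3 differed little beside the set as a whole. Rpl13 stood at 934 FPKM in the KO library and 825 FPKM in the WT library, a log2 ratio of 0.18. Rpl41, which encodes a protein of very few residues, had 1498 FPKM in the KO library and 1265 FPKM in the WT library, a log2 ratio of 0.24. Its KO bounds, 904 and 969.5 FPKM, lie below its WT bounds of 1215 and 1319.7 FPKM, against the direction of the values. Rpl32, among the 5 most abundant of both libraries, had 2249 FPKM in the KO library and 1881 FPKM in the WT library, a log2 ratio of 0.26.

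The stalk genes encode the acidic proteins that recruit translation factors. Rplp2 had 2766 FPKM in the KO library and 1865 FPKM in the WT library, a log2 ratio of 0.57, all in its RefSeq transcript. Rplp1 had 2310 FPKM in the KO library and 1674 FPKM in the WT library, a log2 ratio of 0.46. Its KO value included an assembled model, and its RefSeq transcript alone had 1612 FPKM in the KO library. Rplp0, the scaffold on which the other stalk proteins sit, had 1405 FPKM in the KO library and 1162 FPKM in the WT library, a log2 ratio of 0.27. By exons all 3 were higher in the KO library, by 0.57 for Rplp2, 0.37 for Rplp1 and 0.44 for Rplp0 as log2 ratios.

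In the small subunit Rps28 was the most abundant member at the exon level in both libraries, with 3342 FPKM in the KO library and 2252 FPKM in the WT library, a log2 ratio of 0.57. Its WT value lies above the bounds of 1014 and 1099 FPKM given for it. The FPKM lay outside its own bounds in 23 genes of the set in the KO library and in 9 in the WT library. No share over all genes stands beside these counts, so they cannot be read as a trait of the set. Rps19, the gene most often mutated in Diamond-Blackfan anaemia, had 869 FPKM in the KO library and 588 FPKM in the WT library, a log2 ratio of 0.56. Other genes of that disease ranged more widely, with Rps24 at 0.34 and Rpl5 at -0.36 on the sum and 0.23 by exons. Rps26 had 2148 FPKM in the KO library and 1494 FPKM in the WT library, a log2 ratio of 0.52. Rps10 had 1157 FPKM in the KO library and 839.8 FPKM in the WT library, a log2 ratio of 0.46. Rps7, which like Rpl11 binds MDM2, had 846 FPKM in the KO library and 656 FPKM in the WT library, a log2 ratio of 0.37. Rps27a, made as a fusion to ubiquitin, had 1084 FPKM in the KO library and 844 FPKM in the WT library, a log2 ratio of 0.36. Apart from Rpl5 on the sum, each of these genes was higher in the KO library. Rps20 had 1837 FPKM in the KO library and 1281 FPKM in the WT library, a log2 ratio of 0.52. Rps14, whose loss marks a form of human myelodysplasia, had 1534 FPKM in the KO library and 1225 FPKM in the WT library, a log2 ratio of 0.32. Its KO bounds, 1081 and 1132 FPKM, lie below its WT bounds of 1201 and 1273 FPKM, against the direction of the values. Rps29 had 1572 FPKM in the KO library and 1055 FPKM in the WT library, a log2 ratio of 0.58. Rps13 was at the lower end of the small subunit, with 719 FPKM in the KO library and 629 FPKM in the WT library, a log2 ratio of 0.19.

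The X chromosome carries 4 members, and 3 of them were among the 8 with the highest exon-level log2 ratios of the 80. Rpl39, which lines the exit tunnel, had 748 FPKM in the KO library and 444 FPKM in the WT library, a log2 ratio of 0.75. Its KO bounds, 406 and 451 FPKM, lie below the KO value and overlap the WT bounds of 417 and 472 FPKM. Rps4x had 627 FPKM in the KO library and 388 FPKM in the WT library, a log2 ratio of 0.69. Rpl10, which takes part in joining the subunits, had 740 FPKM in the KO library and 479 FPKM in the WT library, a log2 ratio of 0.63. Rpl36a, at 729 FPKM in the KO library and 578 FPKM in the WT library, had a log2 ratio of 0.34 and ranked 57 of 80. All genes on the X compared at the exon level, 584 of them, had a median log2 ratio of 0.11. Their median length was 2429 nt, against 642 nt for the 4 members. With the median of the length bin taken off, Rpl39, Rps4x, Rpl10 and Rpl36a had 0.23, 0.19, 0.13 and -0.19 at the exon level. Chromosome 7, which carries 14 members with a median of 0.40, had 0.30 over 1075 genes.

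Several autosomal paralogs were also higher in the KO library. Rpl39l, a germ cell paralog of Rpl39 with 85.3% identical coding bases, had 210 FPKM in the KO library and 122 FPKM in the WT library, a log2 ratio of 0.78 close to that of its parent. Rpl10l, an intronless copy of Rpl10 that is needed for male meiosis in mice and has 84.8% identical coding bases, had 105 FPKM in the KO library and 74.4 FPKM in the WT library, a log2 ratio of 0.50. Both paralogs were thus detected beside their X-linked parents in each library. Rps27l, which shares 76.3% of aligned coding bases with Rps27, had 163 FPKM in the KO library and 107 FPKM in the WT library, a log2 ratio of 0.60. Rpl3l, the striated muscle paralog of Rpl3 with 74.4% identity, was listed at 0 in the WT library, with an upper bound of 0.208 FPKM, and at 5.17 FPKM in the KO library, with bounds of 4.13 and 6.28 FPKM. Its log2 ratios of 2.62 on the sum and 2.44 by exons depend on the pseudocount, and no fold is given against a value of 0. Rpl32l was listed at 0 in both. Rps4l, a transcribed pseudogene by its annotation and so outside the set, had 296 FPKM in the KO library and 202 FPKM in the WT library, with 79.8% of coding bases shared with Rps4x.

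**Figure D3:**
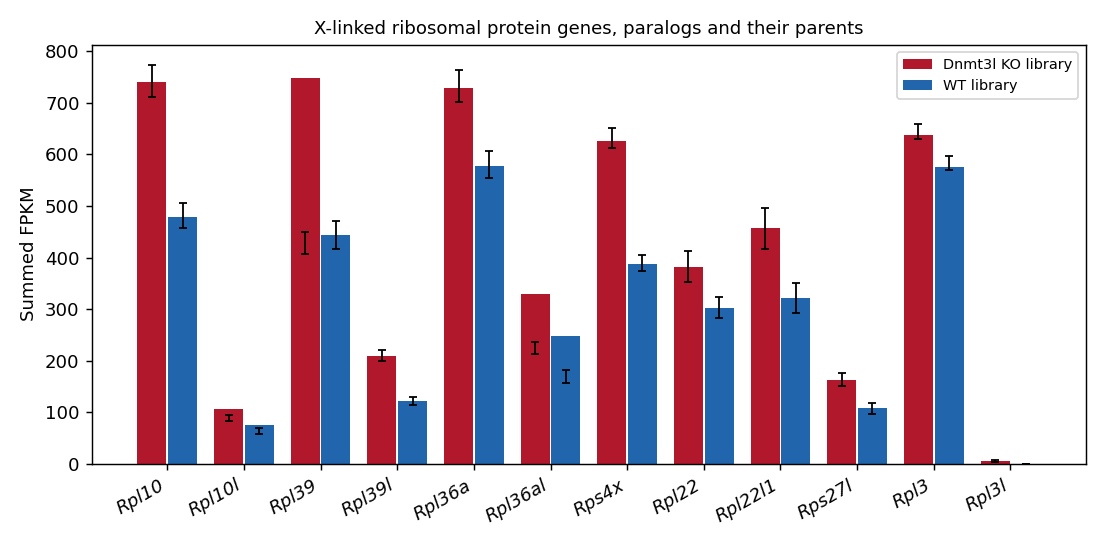
Summed FPKM of X-linked ribosomal protein genes, paralogs and their parents in the KO library (red, left) and the WT library (blue, right), with the lower and upper bounds of the deposited estimates as black lines. Each red bar is taller than its blue bar, and in Rpl39, Rpl10l and Rpl36al the bounds do not reach the top of 1 or both bars.

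The 4 genes Rpl26, Rpl30, Rpl34 and Rps27 had little or no FPKM of their own, and another gene's transcript was quantified on their exons. Rpl30, Rpl34 and Rps27 were listed at 0 in both libraries, and Rpl26 at 0 in the KO library and 147 FPKM in the WT library. At each of these loci the files place, on the same exons, a RefSeq transcript that belongs to a near-identical copy on another chromosome. At Rpl26 (chr11:68901566-68904534, plus strand) it was Gm15772, annotated at chr5:3236390-3236928, with 1810 FPKM in the KO library and 1269 FPKM in the WT library. At Rpl30 (chr15:34440508-34443276, minus strand) it was Gm12191, annotated at chr11:49678620-49679143, with 1465 FPKM in the KO library and 1068 FPKM in the WT library. These values lie within the range of the other members. At Rpl34 (chr3:130726831-130730308, minus strand) it was Rpl34-ps1, annotated at chr6:71124589-71125001, with 1632 FPKM in the KO library and 1305 FPKM in the WT library. At Rps27 (chr3:90212667-90213648, minus strand) it was Rps27rt, annotated at chr9:114982366-114982739, with 1709 FPKM in the KO library and 1337 FPKM in the WT library. The files give each of these transcripts 4 or 5 exons at the member's locus, on build GRCm38 (mm10).

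The coding sequences differ so little that they are shown here, from the mouse reference transcripts of build GRCm38, with the differing base in capitals in the stretch around the first difference.
Rpl30, coding bases 76 to 116: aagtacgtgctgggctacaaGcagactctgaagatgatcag
Gm12191, same stretch: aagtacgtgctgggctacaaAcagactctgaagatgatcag
Rpl26, coding bases 157 to 197: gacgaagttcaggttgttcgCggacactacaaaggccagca
Gm15772, same stretch: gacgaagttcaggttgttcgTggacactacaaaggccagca
Rpl34, coding bases 112 to 152: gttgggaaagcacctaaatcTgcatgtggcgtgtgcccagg
Rpl34-ps1, same stretch: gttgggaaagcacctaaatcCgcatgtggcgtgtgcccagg
Counted from the first base of the start codon, with the base of the ribosomal protein gene first, the differences were G96A alone over the 348 coding bases of Rpl30, C177T and T288C over the 438 of Rpl26, and T132C and C318G over the 354 of Rpl34. Rps27 and Rps27rt did not differ over 255 coding bases. Taking everything at the locus together, the log2 ratios were 0.35 for Rpl26, 0.46 for Rpl30, 0.32 for Rpl34 and 0.35 for Rps27, all within the quartiles of the set on the sum. The log2 ratio of -7.21, by which Rpl26 was counted among the 2-fold lower genes, holds for its own transcript alone.

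Copies of this kind are common in the set. Of 80 members with a coding sequence, 69 had at least 1 other annotated gene or pseudogene with 95% or more identity over 90% or more of the coding bases. There were 500 such copies, 485 of them pseudogenes, with a median of 4 per member and the most, 56, for Rpl21. Of 478 single-exon pseudogene copies, 7 had 1 FPKM or more over their bases in the KO library and 5 in the WT library, so nearly all of these copies were under 1 FPKM in the deposited files. The exon-level median log2 ratio was 0.41 for members with a near copy and 0.35 for the 11 without. Reads that match a gene and its copies equally are uncertain in either place. Introns of the set also hold snoRNA genes, which guide modification of ribosomal RNA. The 29 host genes, with 56 snoRNA genes inside them, had a median of 0.39 and the others 0.42.

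The remaining large values rested on assembled models, which need not have a counterpart in the other library. Models were joined to 24 members, in both libraries for 14, in the KO library alone for 5 and in the WT library alone for 5. Rps15a had 125 FPKM in the KO library and 2535 FPKM in the WT library, a log2 ratio of -4.33. Of the WT value, 1344 and 1174 FPKM belonged to models of 306 and 388 nt, whereas the RefSeq transcript, 5134 nt long, had 125 FPKM in the KO library and 17.2 FPKM in the WT library. The RefSeq-only log2 ratio of Rps15a was therefore 2.79 and its exon-level ratio -0.36, from 125 FPKM in the KO library and 160 FPKM in the WT library. The direction of Rps15a thus differed between the measures.

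Rpl21 and Rpl13a, the other genes past 2-fold, showed the reverse. Rpl21 had 991 FPKM in the KO library, of which 727 FPKM was a model of 717 nt, and 340 FPKM in the WT library. Its log2 ratio was 1.54 on the sum, -0.37 on the RefSeq transcript and 0.68 at the exon level. Rpl13a, a protein also known from a complex that silences inflammatory mRNAs, had 1928 FPKM in the KO library, of which 1077 FPKM was a model of 401 nt, and 915 FPKM in the WT library. Its log2 ratios were 1.07, -0.11 and 0.47 in the same order. Neither was 2-fold different at the exon level.

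Several other genes had a negative log2 ratio on the sum. Rps3, a small subunit protein at the mRNA entry site, had 389 FPKM in the KO library and 705 FPKM in the WT library, where 565 FPKM was a model of 759 nt with no counterpart in the KO library. Its log2 ratio was -0.86 on the sum and 0.12 at the exon level. Rpl37 had 337 FPKM in the KO library and 581 FPKM in the WT library, a log2 ratio of -0.78 on the sum and 0.04 at the exon level. A KO model of 258 nt at Rpl37, below the length limit, had 1723 FPKM, and with it the log2 ratio of the sum was 1.83. Rpl5, which carries the 5S ribosomal RNA together with Rpl11, had 532 FPKM in the KO library and 683 FPKM in the WT library, with a log2 ratio of -0.36 on the sum and 0.23 by exons. These genes were lower on the sum and higher at the exon level in the KO library. Rpsa, which is also known as a laminin receptor, had 1405 FPKM in the KO library and 1448 FPKM in the WT library, with a log2 ratio of -0.04 on the sum and 0.21 by exons.

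RefSeq transcripts alone gave the widest scatter. By that value 10 members were at least 2-fold higher and 1 at least 2-fold lower, where all genes gave 11.7% and 11.3%. The highest were Rpsa and Rps24, whose RefSeq transcripts were listed at 0 in the WT library while assembled models there held 1448 and 2594 FPKM. The RefSeq transcripts of Rps24 share their start and end and have 5, 6 or 7 exons. Rps24 had 3272 FPKM in the KO library over all its transcripts. Of this, 2355 FPKM was in a model of 6 exons and 581 FPKM in a model of 5. In the WT library Rps24 had 2594 FPKM in 1 model of 6 exons. Its log2 ratio was 0.34 on the sum and 0.33 at the exon level. Rps25, needed for translation from some viral RNAs, was listed at 0 in RefSeq in both libraries and had 1865 FPKM in the KO library and 1095 FPKM in the WT library in models alone, a log2 ratio of 0.77 by the sum and by exons. Rpl27a had 1269 FPKM in the KO library and 717 FPKM in the WT library on the sum, a log2 ratio of 0.82, but -0.88 on RefSeq alone and 0.40 at the exon level. Rpl6, Rpl23 and Rpl23a had RefSeq-only log2 ratios of 1.40, 1.05 and 1.00 and exon-level ratios of 0.36, 0.64 and 0.50. The 3 measures had the same sign in 64 members.

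**Figure D4:**
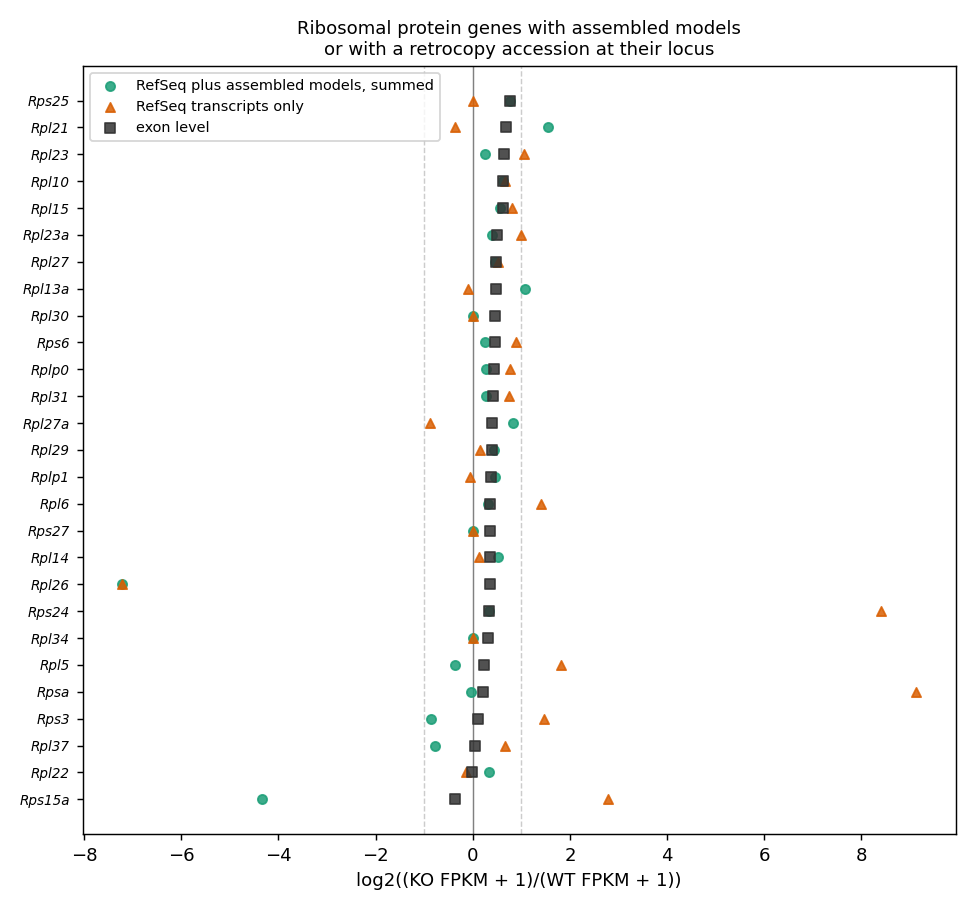
Log2 ratio of KO over WT for 23 of the 24 members with assembled models and the 4 with a copy's transcript at their locus, by the summed FPKM (green circles), RefSeq transcripts only (orange triangles) and the exon level (black squares), ordered by the exon level, with 2-fold in either direction dashed. The squares lie between -0.36 and 0.77, while circles reach -7.21 in Rpl26 and triangles 9.12 in Rpsa.

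Ribosomal proteins whose symbols miss the rule had ratios in the same range. All 7 were higher in the KO library, with a median log2 ratio of 0.41. Rack1, a signalling scaffold on the small subunit, had 686 FPKM in the KO library and 528 FPKM in the WT library, a log2 ratio of 0.38. Fau, a ubiquitin-like fusion, had 820.1 FPKM in the KO library and 615 FPKM in the WT library, a log2 ratio of 0.42. Rps3a1 was the lowest at 0.17, and Rpl22l1, the paralog of Rpl22, the highest at 0.50.

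Mitochondrial ribosomal proteins, which serve a separate ribosome, had a median log2 ratio of 0.45 over 76 genes. Of these, 72 were above 0 and 8 at least 2-fold higher, where 66% and 7.67% of all genes were. At the exon level 4 of 77 were at least 2-fold higher and 1 at least 2-fold lower, where all genes gave 5.2% and 3.09%. Mrpl32 and Mrpl51 were the highest on the sum, with 32.4 and 29.4 FPKM in the KO library. Both were listed at 0 in the WT library, so their ratios depend on the pseudocount. Mrpl35 and Mrps17 were the lowest at -0.60 and -0.46 on the sum, but had 0.30 and -0.13 by exons. These mRNAs were far less abundant, with a highest value of 219 FPKM in the KO library and 149.5 FPKM in the WT library.

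Genes that make or use the cytoplasmic ribosome lay nearer to the median gene. The 41 ribosome assembly genes had a median log2 ratio of 0.09, with 12 above the median gene, from -0.85 and -0.83 in Wdr12 and Utp20 to 0.55 and 0.78 in Nop14 and Riok1. At the exon level Wdr12 and Riok1 had 0.04 and 0.11. The 12 genes of RNA polymerase I and its factors had a median of 0.23, with Polr1a and Taf1d lowest at -0.48 and -0.43 and Polr1b and Polr1d highest at 0.38 and 0.33. By exons Polr1b had -0.13, and its RefSeq transcripts alone gave -0.92. Other RNAs with a TOP tract, called other TOP mRNAs here though Gas5 and Snhg1 are noncoding, numbered 18. They share Rack1 with the symbols outside the rule and Npm1 with the assembly genes. They had a median of 0.18, with 9 above the median gene. Among them Eef1a1, the elongation factor that delivers tRNA, had 3459 FPKM in the KO library and 3252 FPKM in the WT library, a log2 ratio of 0.09, and Eef2 had 713 FPKM in the KO library and 748 FPKM in the WT library, a log2 ratio of -0.07. Hnrnpa1 and Gas5 were the highest of that list at 0.64 and 0.63, and Eef1b2 and Eif2s3x the lowest at -0.45 and -0.33. By exons Hnrnpa1 had -0.05, Gas5 0.42, Eef1b2 -0.11 and Eif2s3x -0.33, and Gas5 had -0.28 on RefSeq transcripts alone. With the median of the length bin taken off, the medians were -0.09 for other TOP mRNAs, -0.23 for assembly genes, -0.06 for RNA polymerase I and -0.04 for mitochondrial ribosomal proteins, beside -0.11 for the cytoplasmic set.

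**Figure D5:**
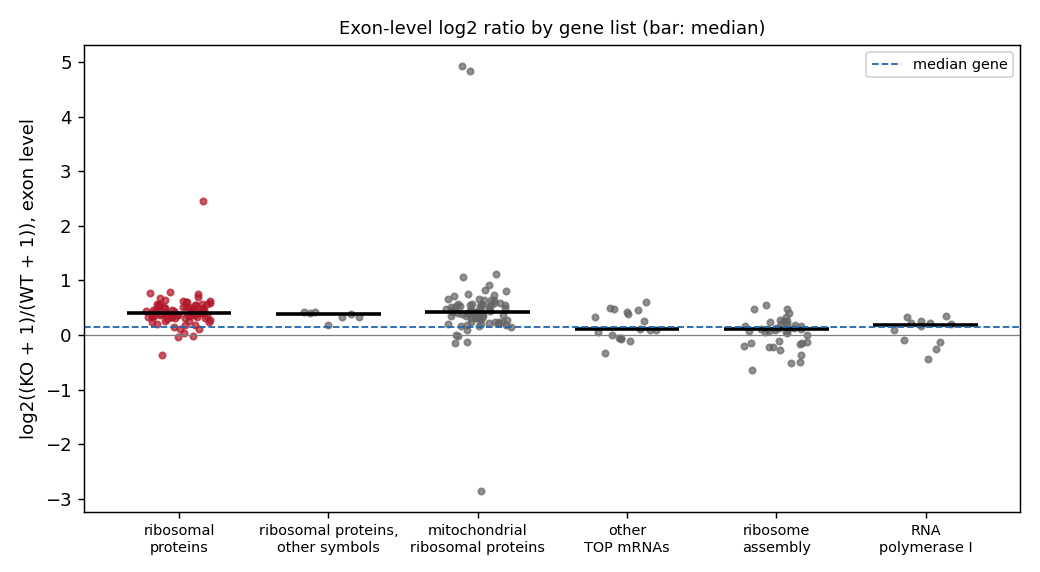
Exon-level log2 ratio of KO over WT for each gene of 6 lists at 1 FPKM or more, with list medians as black bars and the median gene as a dashed line. Cytoplasmic and mitochondrial ribosomal proteins have medians of 0.41 and 0.43, other TOP mRNAs and ribosome assembly genes 0.10 and 0.11, and RNA polymerase I genes 0.19.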

How the data were processed

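RNA of spermatogonial progenitors was selected for poly(A), fragmented, copied with random primers and read as pairs of 100 nt, per the labels' protocols, which describe no step that marks the strand. Overlapping genes on opposite strands may therefore not be separable. Per the submitters' processing notes, which give no settings, the tools were CASAVA 1.9, TopHat2 2.0.8 and Cufflinks 2.1.1, on mm10. The authors deposited, for each library, a transcript annotation with an FPKM, lower and upper bounds and a coverage for 30073 RefSeq transcripts and for models assembled in that library, 20415 in the KO and 20579 in the WT library.

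Of 30079 RefSeq identifiers, 28942 were named by accession, 174 by GENCODE metadata and 884 by exon overlap with GENCODE M21, and 79 were not named. Models joined the gene on the same strand with which they shared most exon bases. A model with no strand needed a share of 0.5 of its bases. Models under 300 nt were left out, since the 608 of the KO library summed to more than all its RefSeq transcripts. The pseudocount was 1 FPKM and the filter 1 FPKM in either library. No p-value was computed. The median gene is the median over genes reaching 1 FPKM in each library.

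Members, gene lists and the rule for named genes (the extremes of the ratio and of the level, genes at 0, the stalk, paralogs and their parents, MDM2 and Diamond-Blackfan genes, genes whose measures differ in sign or reach 2-fold, and the extremes of each list) were chosen with earlier results of these data known. A few genes that enter the counts and medians are not reported here one by one. Alternatives were pseudocounts of 0.1 and 5, no filter or one of 10 FPKM, upper-quartile scaling, centring on the median gene, the total without the 50 most abundant genes, RefSeq transcripts only, the most abundant RefSeq transcript, the exon level, the coverage, no length limit on models, the mean, a 1.5-fold limit and 20 length bins. Chosen after seeing the data were the sum with the other accession at a locus, genes without models, and centred or length-binned forms of the RefSeq-only and exon levels. Near copies were found with blastn 2.17.0. The computation was tested on simulated data. Python 3.11.15, numpy 2.4.6, pandas 2.3.3 and scipy 1.17.1 were used.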

Additional observations from a re-analysis of the deposited data

Results flagged for a closer look

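Models shorter than 300 nt were left out of the sums and of the exon level. At 2 members they carried signal in the KO library with no such model in the WT library. At Rpl37 a model of 258 nt and 4 exons had 1723 FPKM, with bounds of 1644 and 1817 FPKM, beside 337 FPKM for the sum used, and with it the log2 ratio of KO over WT was 1.83 in place of -0.78. At Rpl22 a model of 278 nt and 4 exons had 341 FPKM, with bounds of 308 and 374 FPKM, beside 382 FPKM for the sum used, and with it the log2 ratio was 1.25 in place of 0.33. The cause was not tested.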

How the results depend on the processing

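No paired analysis was possible because there was 1 library per genotype and no test. The pseudocounts and filters kept each median within 0.1 and each count within 1.5 times. The median log2 ratio of the set was 0.198 after centring on the median gene, 0.203 with upper-quartile scaling, 0.0999 with the total of all but the 50 most abundant genes and 0.544 from the coverage. It was 0.257 as a mean, and 0.303 and 0.257 for the RefSeq-only and exon levels after centring. Only the length bins turned it round, to -0.111 on the sum and -0.0811 at the exon level. For the large subunit centring, upper quartile, total and coverage gave 0.237, 0.242, 0.139 and 0.58, the centred RefSeq-only and exon levels 0.306 and 0.27, and length bins -0.0903 and -0.0687. For the small subunit centring, upper quartile, total and coverage gave 0.173, 0.178, 0.0749 and 0.518, the centred exon level 0.238, and length bins -0.149 and -0.12.

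The count of 3 genes at least 2-fold higher became 10 on RefSeq transcripts or the most abundant of them, and 7 on RefSeq transcripts after centring. Centring the sum on the median gene gave 2. The count became 5 with no length limit on models, 11 at 1.5-fold, and 1 at the exon level in all its forms or without models. The count of 2 at least 2-fold lower became 4 with length bins, the total or 1.5-fold, 1 on RefSeq transcripts, with the other accession added or without models, and 0 at the exon level in all its forms. The 65 genes above the median gene became 22 with length bins and 25 with length bins at the exon level. Reversed signs were seen in Rpl26, at 0.347 (exon level), 0.195 (centred) and 0.354 (other accession added). Rps15a had 2.79 on RefSeq transcripts and 2.63 centred. Rpl13a had -0.105, -0.269 centred and -0.0279 with exon-level length bins, and Rpl21 had -0.368 and -0.532 centred. The cause of these shifts was not tested beyond the transcripts given for each gene. With no counts in the files, what depth limits is unknown.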
